A study of Mesocricetus auratus with 24 samples.

Results

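A set of 11334 windows of 1 kb was described that were dense in measured CpG positions and carried little DNA methylation in vehicle-treated Syrian hamster fetal cells. A window was kept when each of the 24 libraries listed at least 3 positions in it, when at least 30 distinct positions (base and strand) were listed in it over all libraries, and when its mean level in the 4 vehicle pools was below 10%. The level of a window in a library is the percentage of its reads that carried a methylated C, summed over the listed positions. These windows made up 81.0% of the 13992 dense windows and 49.6% of the 22842 windows measured in all 24 libraries. A further 1281 dense windows lay at 10 to 50% in the vehicle pools and 1377 at 50% or more, so that most dense windows were low there. The windows were selected on the measured vehicle levels, and no comparison with the vehicle pools was tested.

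CpG methylation is placed on cytosines of CpG pairs by DNA methyltransferases and copied to the new strand at replication. Most mammalian CpGs are methylated, whereas CpG islands, the short CpG-dense stretches found at many gene starts, are usually free of methylation in normal cells. Gain of methylation at such stretches is a known feature of cultured, ageing and tumour cells. The density used here is that of positions read by the assay. Reduced representation bisulfite sequencing cuts DNA at a CCGG site and so samples CpG-rich fragments, bisulfite turns unmethylated C into U (read as T), and the share of C among reads gives the level. Genes and sequence at these windows were not used here, because the sources do not name the genome build of the coordinates.

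All samples came from a cell transformation assay, in which primary fetal cells form colonies and some colonies of cells treated with a carcinogen take on a disordered, transformed morphology. Benzo[a]pyrene, a polycyclic hydrocarbon that is metabolised to DNA-binding products, was the carcinogen. Each of 6 groups had 4 libraries. DMSO denotes pools of about 60 colonies at day 9 after vehicle (0.2% DMSO), and BaP denotes pools of about 60 colonies at day 9 after 5 µg/mL benzo[a]pyrene. Nc and MTc denote cultures grown from single colonies of the same benzo[a]pyrene dose, with normal (Nc) or morphologically transformed (MTc) appearance, at day 19 to 25. The labels describe these 16 samples as biological replicates of assays on a single male fetus, and whether it was 1 fetus or several is not stated. SEN denotes a senescent culture at day 48 from 1 transformed, benzo[a]pyrene-treated colony, and SENbp the same culture at day 94 after it had bypassed senescence. Both were typed as male and came from an assay on pooled female and male fetuses. Their 4 libraries are technical replicates of 1 culture, so that their p-values measure the spread between libraries of that culture and not between cultures.

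The libraries listed 809562 to 1484688 positions each, with a total coverage of 30316233 to 67276906 and a median coverage of 21 to 38 reads per position. A member window had a median of 803 read counts per library, in which a read is counted at every position it covers, and a median of 29 listed positions. Within a group, 38.4 to 67.3% of the member positions of 1 library were also listed in another, so that window levels compare partly different positions. No replicate pair agreed within sampling noise at the 3933 to 19435 positions compared per pair, taken at 10 to 90% methylation. These were a small part of the listed positions. Reads without molecular identifiers are not independent molecules.

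The windows lay on 598 sequences of the assembly used by the authors, 11040 of them on scaffolds with KB names, 293 on contigs with APMT names and 1 in the mitochondrial genome. They held 30 to 241 positions, with a median of 71. They formed 9090 runs of adjacent windows, of which 7151 were a single window and the longest spanned 7 kb. Within the set the vehicle level was far below the limit for most windows: its median was 0.646%, 6895 windows were under 1% and 10543 under 5%. Just inside the limit were KB708145.1:20703001-20704000 at 9.994%, KB708302.1:1628001-1629000 at 9.991% and KB708314.1:1991001-1992000 at 9.986%. Just outside it were APMT01214591.1:6001-7000 at 10.01%, KB708274.1:1094001-1095000 at 10.03% and KB708222.1:8015001-8016000 at 10.03%. The limit fell in a thin part of the distribution, with 222 members at 8 to 10% and 161 dense windows at 10 to 12%.

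Methylation of these windows stayed low in most of them and was higher on average in the later cultures. The mean level over the 11334 windows was 1.38, 1.23, 1.47 and 1.53% in the DMSO libraries 1 to 4, and 1.62, 1.53, 1.64 and 1.59% in the BaP libraries. It was 1.82, 1.56, 2.19 and 2.39% in Nc, and 1.84, 2.24, 2.04 and 2.32% in MTc. It was 3.18, 3.39, 3.15 and 3.07% in SEN, and 5.51, 5.12, 5.40 and 5.40% in SENbp. All SEN libraries thus lay above all pools and colony cultures, and all SENbp libraries above all SEN libraries, whereas Nc and MTc overlapped each other. The group means were 1.40% ± 0.132 (SD, n = 4) in DMSO, 1.59% ± 0.0485 in BaP, 1.99% ± 0.372 in Nc, 2.11% ± 0.217 in MTc, 3.19% ± 0.136 in SEN and 5.36% ± 0.169 in SENbp. The DMSO value is set by the selection.

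**Figure D1:**
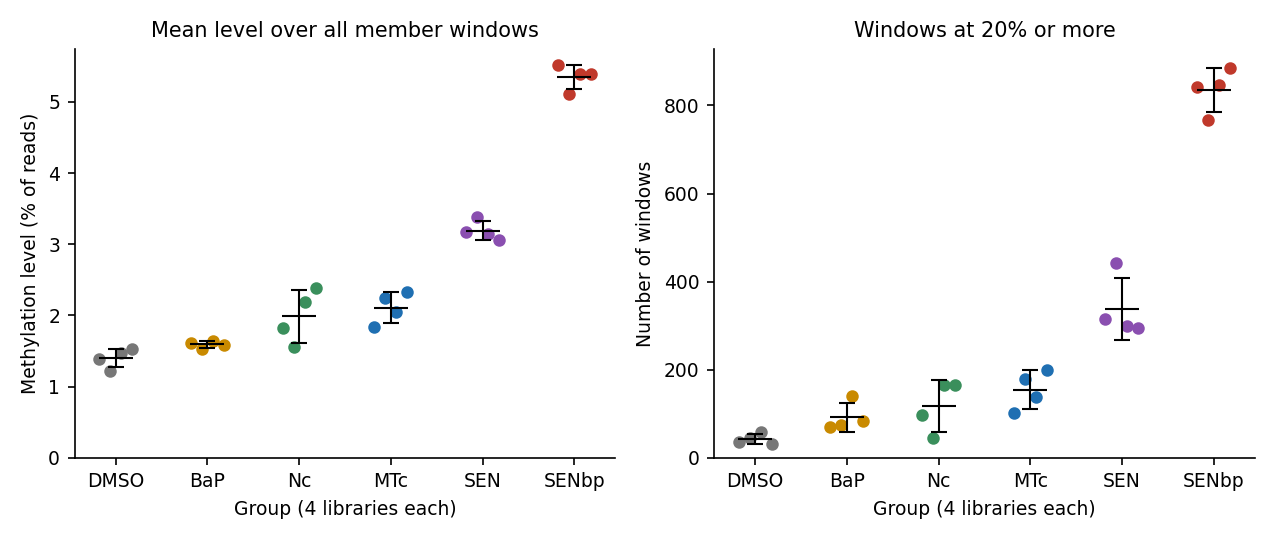
Mean methylation level over the 11334 windows (left, % of reads) and number of windows at 20% or more (right) in each of the 24 libraries; points are libraries, the bar and whiskers are the mean and SD of 4. SENbp libraries lie at 5.12 to 5.51% on the left and 766 to 885 windows on the right, above every other library.

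The upper tail of the windows differed most between groups, while the median window stayed near 0%. The median window of a library lay at 0.0304% ± 0.0609 in DMSO and 0.715% ± 0.436 (SD, n = 4) in SENbp, whereas the 95th percentile was 7.33% ± 0.317 in DMSO, 9.69% ± 1.46 in MTc, 14.96% ± 1.49 in SEN and 25.2% ± 1.09 in SENbp. Windows with a group mean of 20% or more numbered 26 in BaP, 46 in Nc, 75 in MTc, 248 in SEN and 715 in SENbp. Windows at 50% or more numbered 0 in BaP, 1 in Nc, 0 in MTc, 8 in SEN and 85 in SENbp, of which 18 reached 80%. At the other end, 6992 windows (61.7%) stayed under 10% in every one of the 24 libraries and 4493 (39.6%) under 5%. The SD between the 4 libraries had a median over windows of 0.980 points in DMSO, 1.03 in MTc, 1.33 in SEN and 1.65 in SENbp.

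The order of the groups was the same on identical positions. Over the 2417 positions of the member windows that all 24 libraries listed, the mean level was 2.24% ± 0.213 in DMSO, 2.50% ± 0.200 in BaP, 2.89% ± 0.544 in Nc, 3.13% ± 0.305 in MTc, 4.40% ± 0.377 in SEN and 7.01% ± 0.0754 in SENbp (SD, n = 4). Mitochondrial CpG positions, often used as a gauge of incomplete conversion, followed another order, at 4.85% ± 2.38 in DMSO, 5.48% ± 1.46 in BaP, 1.79% ± 1.13 in Nc, 1.92% ± 0.303 in MTc, 2.43% ± 0.674 in SEN and 3.21% ± 0.487 in SENbp. Their part in the levels of the windows was not tested.

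Windows that carried almost no methylation in any culture form the other pole of the set. KB708149.1:4634001-4635000, with 62 positions, was at 0% in all 24 libraries. Its 12492 read counts allow a level of up to 0.0240% (3 counts, counting error only). Of the windows with 60 or more positions, the next lowest maxima were those of KB708138.1:4592001-4593000, at 0.0752% in 1 SEN library, and KB708140.1:7191001-7192000, at 0.257% in 1 MTc library. Of all members, 2 had no methylated read in any library and 111 stayed under 1% in all 24. The windows with the most positions were also low. KB708127.1:20136001-20137000 and KB708204.1:2734001-2735000, with 241 positions each, reached at most 5.27% and 1.28% in any library. KB708138.1:6658001-6659000 (235 positions), KB708225.1:4869001-4870000 (220) and KB708199.1:7431001-7432000 (219) reached at most 0.864%, 1.62% and 7.87%, the last in SENbp library 1.

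Denser windows had lower levels in every group. Members with 30 to 49 positions averaged 1.99% in DMSO, 4.87% ± 0.231 in SEN and 7.72% ± 0.247 in SENbp, whereas members with 100 or more averaged 0.897%, 2.02% ± 0.0879 and 3.74% ± 0.142 (SD, n = 4). The share of windows at 20% or more in SENbp was 10.8% in the former and 3.69% in the latter.

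The first question was whether the culture that bypassed senescence differed from the senescent culture it came from, in windows that were low in the vehicle pools. In SENbp, 169 of the 11334 members were called higher than in SEN and 1 was called lower. A call needed an adjusted p below 0.05 (quasi-binomial F test with limma-squeezed dispersion, Benjamini-Hochberg adjustment over all 41315 tested windows) and group means at least 10 points apart. Of all tested windows 1.06% were called higher and 0.075% lower, against 1.49% and 0.00882% of the members. A fall of 10 points needs a SEN mean of at least 10%, which 887 members (7.83%) had. The median difference was 0.357 points over the members and 0.728 points over all tested windows, and the mean difference was 2.16 and 2.37 points. The median difference of the members was therefore smaller than that of all tested windows, which include them. Of the 22842 windows measured in all 24 libraries, members among them, 1.48% were called higher and 0.0744% lower. The share of members called higher was close to the first of these values.

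All 4 SENbp libraries lay above all 4 SEN libraries in 766 members (6.76%, against 5.94% of all tested windows) and below them in 71 (0.626%, against 1.42%). The unadjusted p was under 0.05 in 1937 members (17.1%, against 15.4% of all tested windows). No member was called by edgeR's quasi-likelihood test, whose smallest adjusted p among them was 0.156, with 932 at an unadjusted p under 0.05. The share of all tested windows under 0.05 by edgeR was not counted. The count of higher calls was 67 without SEN replicate 4, 69 without SEN replicate 1, 70 without SEN replicate 3, 106 without SEN replicate 2 and 110 without SENbp replicate 3.

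**Figure D2:**
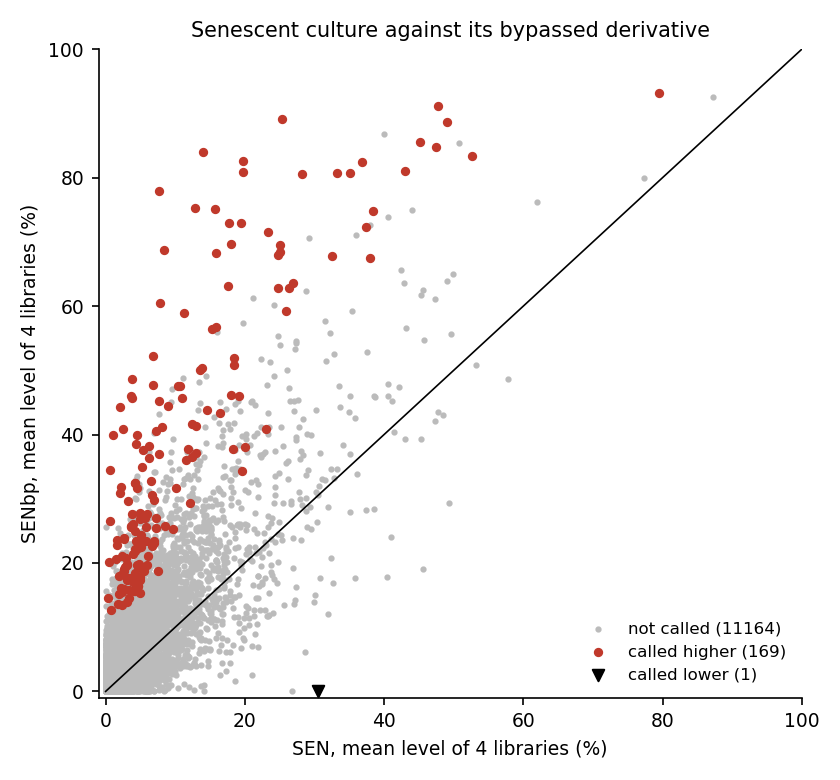
Mean level of each of the 11334 windows in SEN (x axis, %) and SENbp (y axis, %), each the mean of 4 libraries; the line marks equal levels. Most windows lie near the origin, and the 169 windows called higher in SENbp range from 10.5 to 70.3 points above the line.

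The difference between the 2 stages was spread unevenly over the windows. In 5620 members (49.6%) the group means were within 1 point of each other, 4273 were higher by 1 point or more in SENbp and 1441 were lower by 1 point or more. The 849 members that were at least 10 points higher (7.49%, against 15.6% of all tested windows) carried 63.1% of the summed net difference, and the 169 called members carried 19.2%. Another 51 members were at least 10 points lower (0.45%, against 6.76%). Of the 248 members at 20% or more in SEN, 198 (79.8%) were also at 20% or more in SENbp. They made up 27.7% of the 715 members at that level in SENbp. A further 191 members were at 20% or more in SENbp and under 10% in each of the other 5 groups, in DMSO by the selection.

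The 169 called members lay on 103 scaffolds, and the libraries of the 2 groups did not overlap in 160 of them. Their median difference was 23.9 points (10.5 to 70.3). Their mean level was 37.9, 38.3, 39.8 and 40.8% in the SENbp libraries and 11.1, 10.9, 12.1 and 11.1% in the SEN libraries, values that the calls themselves selected. Of these members 15 reached a mean of 80% in SENbp, 30 lay at 50 to 80% and 124 below 50%. Partial gain was thus more frequent than nearly full methylation.

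In the groups that the calls did not use, the same 169 windows were low, and lowest in the pools. The DMSO level is limited by the selection of the windows. Their mean was 3.49% ± 0.105 in DMSO, 4.10% ± 0.277 in BaP, 6.22% ± 1.19 in Nc and 7.08% ± 0.849 in MTc (SD, n = 4), against 1.40, 1.59, 1.99 and 2.11% over all members. In the MTc cultures 31 of them were at 10% or more and 12 at 20% or more, and in the Nc cultures 30 and 6. In SEN 60 were at 10% or more.

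**Figure D3:**
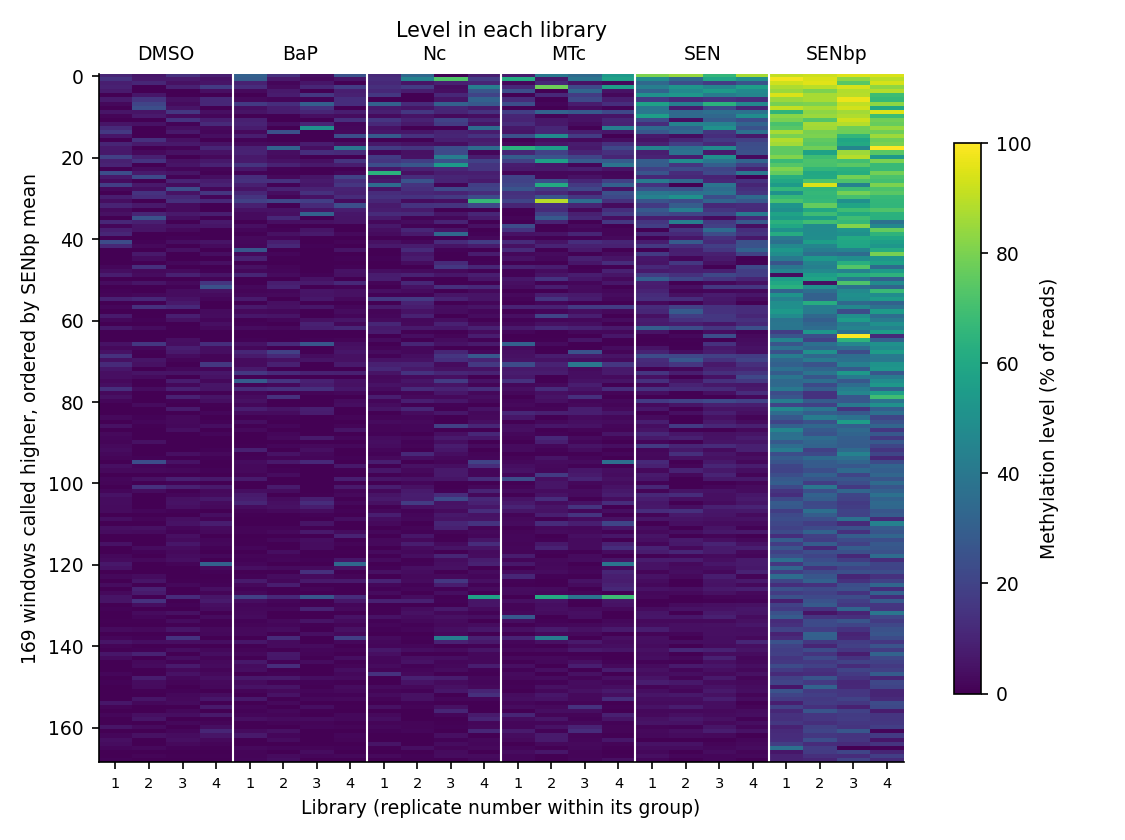
Methylation level (colour, % of reads) of the 169 windows called higher in SENbp than in SEN (rows, ordered by SENbp mean) in each of the 24 libraries (columns, by group and replicate). SENbp columns are high by selection, and single entries above 50% occur in a few BaP, Nc, MTc and SEN libraries.

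The 8 members with the largest increase had group means of 7.71 to 25.3% in SEN and 68.7 to 89.2% in SENbp, and none of their pool or colony libraries passed 50%. KB708274.1:807001-808000 (62 positions) was at 7.40, 3.73, 12.9 and 6.76% in SEN and at 80.0, 80.4, 66.0 and 85.4% in SENbp, a difference of 70.3 points (adjusted p = 0.000583). Its Nc libraries were at 10.4 to 28.4% and its MTc libraries at 0.117 to 47.5%, so this window also varied between colony cultures. KB708128.1:31818001-31819000 (35 positions) was at 17.1, 11.7, 14.5 and 12.8% in SEN and at 85.1, 87.1, 96.9 and 67.1% in SENbp, a difference of 70.02 points (adjusted p = 0.00115). One of its Nc libraries stood at 31.3%, whereas the other 15 pool and colony libraries were at 0 to 21.6%. KB713901.1:2001-3000 (52 positions) was at 33.6, 24.2, 17.7 and 25.7% in SEN and at 92.7, 95.6, 74.6 and 93.9% in SENbp, a difference of 63.9 points (adjusted p = 0.00596). This window was the highest of the 8 in both groups, and its pool and colony libraries were at 0 to 11.5%.

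KB708216.1:2864001-2865000 (39 positions) was at 39.3, 7.85, 21.6 and 10.3% in SEN and at 90.7, 86.8, 93.0 and 59.6% in SENbp, a difference of 62.8 points (adjusted p = 0.00641). Its SEN libraries were the most uneven of the 8, while its MTc libraries were all at 3.45% or less. KB708128.1:3060001-3061000 (42 positions) was at 5.23, 10.6, 16.8 and 18.8% in SEN and at 88.4, 75.8, 58.8 and 78.1% in SENbp, a difference of 62.4 points (adjusted p = 0.00168). The BaP libraries of this window were all at 1.14% or less and its MTc libraries at 3.63% or less. It lay on the same scaffold as the second window above.

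KB708134.1:11287001-11288000 (39 positions) was at 22.8, 3.70, 29.0 and 23.3% in SEN and at 79.6, 73.2, 92.4 and 78.6% in SENbp, a difference of 61.2 points (adjusted p = 0.00283). KB708261.1:3916001-3917000 (60 positions) was at 11.1, 11.3, 10.1 and 1.12% in SEN and at 63.2, 60.8, 78.9 and 71.8% in SENbp, a difference of 60.3 points (adjusted p = 0.000394). Its pool and colony libraries were at 1.14 to 22.2%, so that SEN (8.39% ± 4.88) did not stand above the earlier groups (SD, n = 4). KB708133.1:20568001-20569000 (82 positions) was at 9.14, 18.7, 11.8 and 23.4% in SEN and at 86.0, 74.0, 60.8 and 80.0% in SENbp, a difference of 59.5 points (adjusted p = 0.000967). These adjusted p-values are those of the quasi-binomial test. Each of the 8 windows was called with any 1 of the 8 libraries left out, and edgeR's adjusted p for them was 0.261 to 0.438. Without squeezing of the dispersion, 5 of the 8 were not called.

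**Figure D4:**
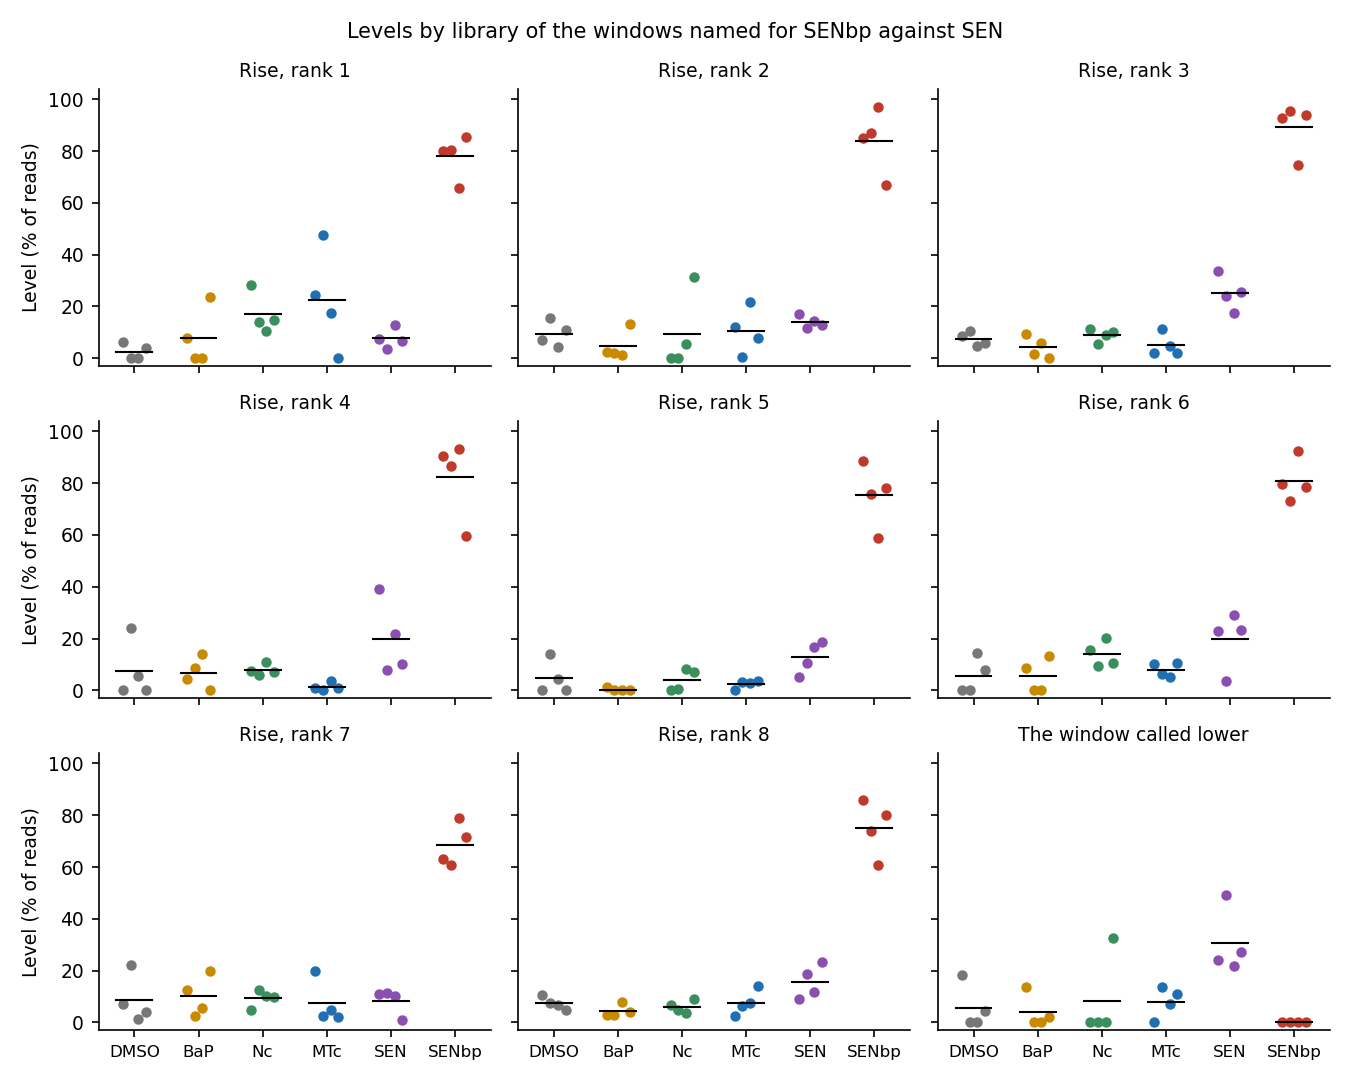
Level (y axis, % of reads) in each library, by group (x axis), of the 8 windows with the largest increase from SEN to SENbp, in the order of the text, and of the window called lower; points are libraries and bars group means. In the first 8 panels all SENbp points lie above all others, and in the last panel all SENbp points are at 0%.

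At single positions of the 169 windows, the shares at 80% or more and at 20 to 80% were both higher in SENbp than in SEN. This direction is set by the calls that chose the windows, and many positions were at 0% in both groups. Over the positions listed in KB708274.1:807001-808000 and summed over 4 libraries, 7.69% were at 80% or more in SEN and 73.8% in SENbp, while the share at 0% was 74.7% and 8.20%. Over all 169 windows, 80.1% ± 3.41 of listed positions were at 0%, 5.45% ± 1.47 at 80% or more and 9.76% ± 3.20 at 20 to 80% in SEN (SD, n = 4). In SENbp 50.4% ± 2.63 were at 0%, 26.1% ± 3.06 at 80% or more and 19.1% ± 4.43 at 20 to 80% (SD, n = 4). Within these windows, the levels of the 2 strands of a CpG were within 20 points of each other in 77.5 to 79.7% of 618 to 1240 pairs per SEN library and in 55.3 to 60.5% of 647 to 1066 pairs per SENbp library. This share also follows the level, since pairs at 0% on both strands count as close, and the strand means were 8.33 to 13.1% in SEN and 34.7 to 40.3% in SENbp. The Pearson r between strands, over CpGs of the same libraries, was 0.235 to 0.404 in SEN and 0.432 to 0.526 in SENbp. In the members not called higher, 94.7% ± 0.907 of positions were at 0% in SEN and 92.6% ± 1.06 in SENbp. In these members 1.42% ± 0.367 of positions were at 80% or more in SEN and 2.56% ± 0.373 in SENbp. The share at 20 to 80% was 2.49% ± 0.774 in SEN and 3.32% ± 0.994 in SENbp (SD, n = 4).

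On identical positions the calls could be examined in fewer windows. Of the 169 members, 52 had at least 3 positions listed in all 8 libraries. In 51 of these the SENbp mean was higher on those positions, in 42 by 10 points or more. The median difference was 21.1 points, against 18.02 points on all listed positions. The calls that chose these 52 windows used the same reads, so the direction was largely set by the selection and is no independent check. With this restriction 2455 members could be tested and 37 were called higher, 24 of them among the 169. The share of all windows called under this restriction was not counted.

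Of the 169 called windows, 71 had an adjacent member window and the others had none. There were 73 such adjacent members, of which 10 were called too, where 1.49% of all members were called. The 63 others had a median difference of 2.63 points, against 0.357 points over all members, and 11 of them were at least 10 points higher in SENbp, as were 7.49% of all members. The difference between neighbours and other members was not tested. Over the 2244 adjacent pairs of members, the differences had a Pearson r of 0.257, a description in which neighbours share libraries and base composition.

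Windows that already carried some methylation in the BaP pools differed more in points between SEN and SENbp. The BaP pools were used neither by the selection nor by this contrast. A call needs a difference of 10 points, so the share called also follows the level. The 6937 members under 1% in BaP averaged 1.33% ± 0.0508 in SEN and 2.16% ± 0.0818 in SENbp, and 0.36% of them were called higher. The 1885 members at 1 to 2% averaged 3.03% ± 0.155 and 5.64% ± 0.181, with 2.33% called. The 1615 members at 2 to 5% averaged 6.07% ± 0.285 and 10.7% ± 0.333, with 3.53% called. The 631 members at 5 to 10% averaged 11.0% ± 0.462 and 17.7% ± 0.584, with 4.28% called, and the 266 members at 10% or more averaged 17.1% ± 1.69 and 24.9% ± 1.204, with 6.02% called (SD, n = 4). In the lowest class 0.995% of windows were at 20% or more in SENbp, and in the highest class 48.1%. Relative to the SEN mean, the rise was smallest in the highest class.

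**Figure D5:**
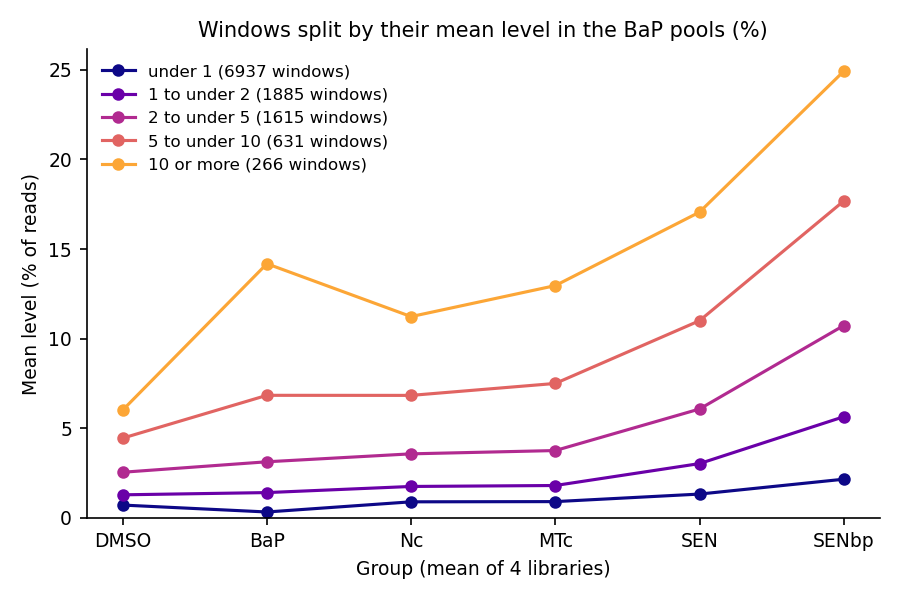
Mean level (y axis, % of reads) in the 6 groups (x axis, means of 4 libraries) of the windows split by their mean level in the BaP pools. All 5 classes are highest in SENbp, from 2.16% in the lowest class to 24.9% in the highest; the position of BaP within each line is set by the split.

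The share called higher was also counted by position and coverage. Members with 100 or more positions were called higher in 1.73% and those with 30 to 49 in 1.55%. On 10 scaffolds of 251 with reduced coverage in SENbp, 9 of 424 members (2.12%) were called, and elsewhere 160 of 10910 (1.47%). The contigs with APMT names had 2 calls among 293 members. Next to a window at 50% or more in the BaP pools, 4 of 131 members (3.05%) were called, and between neighbours that were both under 10%, 4 of 396 (1.01%). These differences were not tested.

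The mean difference of the set was 2.16 points and its median difference 0.357 points, as given above. Dense windows at 10 to 50% in the vehicle pools went from 35.8% in SEN to 44.1% in SENbp, a mean difference of 8.32 and a median difference of 7.09 points, with 6.09% called higher. Dense windows at 50% or more went from 83.3% to 85.4%, by a mean of 2.135 and a median of 1.77 points, with 0.654% called. Sparse windows under 10% went from 6.64% to 10.1%, by a mean of 3.48 and a median of 0.787 points, with 1.26% called. By the mean the set was close to the dense methylated windows, and its median difference was the smallest of these 4 classes. The difference between these classes was not tested.

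The single member called lower was KB708130.1:34393001-34394000 (42 positions). It was at 23.9, 49.4, 21.7 and 27.2% in SEN and at 0% in all 4 SENbp libraries, a difference of -30.6 points (quasi-binomial test, adjusted p = 0.0366). In SENbp its 31 listed positions (4, 20, 4 and 3 in the 4 libraries), with 1399 read counts, held no methylated read, which allows a level of up to 0.214% (3 counts, counting error only). Its DMSO, BaP and Nc libraries were mostly near 0%, with 1 library each at 18.2, 13.7 and 32.6%, and its MTc libraries were at 0, 13.5, 7.07 and 10.98%. The call was lost with each of the 8 libraries left out in turn, when its adjusted p was 0.0524 to 0.163.

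The second question was how the senescent culture differed from the transformed colony cultures. In SEN, 28 members (0.247%) were called higher than in MTc, against 0.182% of all 48822 tested windows, and none was called lower, against 0.0533%. A fall of 10 points needs an MTc mean of at least 10%, which 438 members (3.86%) had. All SEN libraries lay above all MTc libraries in 469 members (4.14%, against 4.54%) and below them in 95 (0.838%, against 2.04%). The unadjusted p was under 0.05 in 1599 members (14.1%, against 14.3%), and edgeR's quasi-likelihood test called none, with 828 under 0.05. SEN and MTc differ in stage and in the fetuses of origin, and SEN is 1 culture from 1 colony, so these cannot be told apart. The 4 SEN libraries are technical replicates, whereas the 4 MTc libraries are biological replicates. The p-values of this contrast therefore do not measure the spread between senescent cultures. This contrast shares the SEN libraries with the one above, and each count is given on its own. The count was 5 without SEN replicate 1, 12 without MTc replicate 1 or 3, 13 without MTc replicate 4, 14 without MTc replicate 2 or SEN replicate 2, 15 without SEN replicate 3 and 18 without SEN replicate 4.

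The 28 windows averaged 31.4% ± 4.17 in SEN and 4.45% ± 0.238 in MTc, by selection. In the groups that this contrast did not use they averaged 4.25% ± 0.507 in DMSO, 5.73% ± 0.354 in BaP, 8.18% ± 2.52 in Nc and 41.0% ± 1.12 in SENbp (SD, n = 4). The DMSO value is limited by the selection of the windows. Of the 28, 22 were at 20% or more in SENbp. Most of these windows were therefore also high in the later sample of the same culture.

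The largest difference was at KB708167.1:15035001-15036000 (59 positions), at 1.76, 0, 2.92 and 0% in MTc and 92.8, 100, 27.2 and 89.3% in SEN (76.2 points, adjusted p = 0.0201). It was at 60.6 to 99.8% in SENbp, and 1 DMSO library stood at 26.4%. The SEN libraries listed 10, 9, 24 and 9 positions in this window and the MTc libraries 39, 7, 27 and 18, so partly different positions were compared. In SEN library 3, with 24 positions, 16 were at 0% and 0 at 80% or more. The call of this window was lost without MTc replicate 1 or SEN replicate 1. KB708244.1:5982001-5983000 (57 positions) was at 5.69, 5.97, 2.01 and 3.81% in MTc and 60.2, 41.3, 25.8 and 72.2% in SEN (45.5 points, adjusted p = 0.0152), and its call was lost without MTc replicate 3 or SEN replicate 1. KB708200.1:7160001-7161000 (128 positions) was at 1.21, 0.369, 7.45 and 8.29% in MTc and 57.5, 47.7, 36.9 and 46.9% in SEN (42.9 points, adjusted p = 0.00292). KB708153.1:1663001-1664000 (67 positions) was at 10.5, 1.53, 4.90 and 5.44% in MTc and 56.1, 34.1, 33.3 and 48.6% in SEN (37.4 points, adjusted p = 0.00652). The last 2 windows were called with any 1 library left out. In SENbp the former was at 30.1 to 55.3% and the latter at 69.01 to 87.99%.

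Among the other 4 named windows, KB708308.1:3127001-3128000 differed by 44.9 points (adjusted p = 0.0259), with SEN libraries at 24.1 to 83.3%, the highest of them on 60 read counts. KB708249.1:266001-267000 differed by 38.1 points (adjusted p = 0.00795) and was at 0% in all DMSO libraries. In SENbp these windows were at 6.45 to 30.7% and 5.13 to 29.9%, and neither difference between SENbp and SEN was called. KB708208.1:266001-267000 differed by 41.3 points (adjusted p = 0.0472) and KB708194.1:2940001-2941000 by 38.3 points (adjusted p = 0.0313). The former already lay at 25.5% ± 8.95 in Nc and 18.4% ± 8.22 in BaP (SD, n = 4). Of these 4 calls, that at KB708249.1 was lost without SEN replicate 1, and the others were lost in 5 to 7 of the 8 fits that left out a library. All adjusted p-values here are from the quasi-binomial test.

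The third question was whether morphologically transformed and normal colony cultures of the same treatment differed. No member was called in MTc against Nc in either direction, and 0.0% of all 45975 tested windows were. The unadjusted p was under 0.05 in 907 members (8.0%, against 7.2% of all tested windows) by the quasi-binomial test and in 476 by edgeR's, and the smallest adjusted p was 0.687. The median difference over the members was 0.0111 points and the mean difference 0.120 points, against 0.272 and 1.81 points over all tested windows. The groups did not overlap in 122 members higher (1.08%, against 1.6% of all tested windows) and 90 lower (0.794%, against 0.879%).

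The 3 members with the smallest p were KB708284.1:678001-679000, KB708267.1:2148001-2149000 and KB708184.1:8650001-8651000. The first was at 1.57, 0.0450, 0 and 0% in Nc and 5.29, 34.96, 48.95 and 15.2% in MTc, a difference of 25.7 points that did not pass the adjusted threshold (quasi-binomial test, adjusted p = 0.687). It was at 0 to 3.28% in SEN and at 0.977 to 7.82% in SENbp. The second was at 0.929 to 6.54% in Nc and 0 to 0.162% in MTc. The third was at 0.324 to 1.85% in Nc and 2.95 to 6.30% in MTc. The last 2 differed by less than 5 points.

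Single libraries nevertheless stood out at single windows. A window was counted when 1 library of a group was at 30% or more and the other 3 were under 10%. There were 19 such windows in DMSO, where the selection limits them, 31 in BaP, 42 in Nc, 55 in MTc, 40 in SEN and 42 in SENbp. Of the 55 in MTc, 30 were in library 4, and of the 40 in SEN, 22 were in library 2. These rested on a median of 14 listed positions in MTc library 4 and 6 in SEN library 2. SEN and SENbp libraries are technical replicates, so windows of this kind also arise between libraries of 1 culture. As examples chosen after their values were seen, KB708136.1:24896001-24897000 was at 89.2% in MTc library 1 and at 0.5, 1.18 and 8.80% in the other 3. KB708162.1:10976001-10977000 was at 81.3% in Nc library 3 and at 9.30, 0.132 and 3.92% in the others. The former was at 36.3% in 1 BaP library and at most 2.48% in any SEN or SENbp library.

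Transformed colony cultures were also compared with the BaP pools of the same dose, where stage and pooling of colonies cannot be told apart. No member was called in MTc against BaP, and 0.0% of all 45457 tested windows were. The unadjusted p was under 0.05 in 973 members (8.58%, against 8.69% of all tested windows) by the quasi-binomial test and in 636 by edgeR's. The groups did not overlap in 246 members higher in MTc (2.17%, against 2.77% of all tested windows) and 56 lower (0.494%, against 0.955%). One member passed the adjusted threshold in the main test without reaching 10 points. This was the mitochondrial window MT:2001-3000, at 6.002, 6.447, 10.1 and 4.34% in BaP and 1.92, 2.13, 1.45 and 2.80% in MTc (-4.65 points, quasi-binomial test, adjusted p = 0.000494, 10971 to 191028 read counts per library). Its adjusted p was 0.393 without squeezing, 0.629 with weights capped at 20 reads per position and 0.916 by edgeR, and 3.5e-05 to 0.0111 with a library left out, a coverage minimum of 20 reads, shared positions or the deviance form. Its difference ran against that of the nuclear members, whose mean level was higher in MTc. Of the nuclear members, KB708274.1:3820001-3821000 had the smallest p, at 3.74, 0.126, 3.83 and 9.47% in BaP and 20.7, 19.2, 23.3 and 20.3% in MTc, a difference of 16.6 points that was not called (quasi-binomial test, adjusted p = 0.380).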

How the data were processed

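Reduced representation bisulfite libraries of 24 samples were used, with groups and replicate numbers from the sample labels. The submitters' processing notes name methylKit 1.10.0 in R 3.6.1, the bisulfite aligner Bismark 0.22.1 with Bowtie2, the trimmer Trim Galore 0.5.0 and bcl2fastq 2.20.0.42. Settings and genome build are not given in the sources used here, and coordinates are printed as deposited. For every CpG position and strand the deposited tables hold, by their headers, a count of reads (coverage) and the percent of them with C and with T, and the authors listed no position under 10 reads. Methylated reads, recovered as coverage times percent, lay within 0.06 reads of a whole number in 100% of values at coverage up to 1000. Whether PCR duplicates were discarded is not recorded.

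Reads were summed over 1 kb windows. A window entered a comparison when all 8 libraries listed 3 or more positions in it. Methylated and unmethylated reads were tested with a quasi-binomial model (score F test), with Pearson dispersions squeezed by limma 3.58.1 (R 4.3.3) in 10 classes of pooled methylation and a floor of 1. The p-values were adjusted over all tested windows. The test was also run on simulated independent windows drawn with its own fitted dispersions. That run cannot show whether these dispersions suit the data. Alternatives included edgeR 4.0.16. Shares over all tested windows were counted for the main test only, so member counts under the alternatives stand without a background.

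The windows, tests and lists were chosen with earlier results of these data known. For each comparison, named windows were, among called members with no overlap between groups, the top 8 by increase and the top 8 by decrease. Where none was called, they were the 3 of smallest p. The others were the 5 with the most positions, the 3 with the lowest maximum among those with 60 or more positions, and 3 on each side of the limit of 10%. Gene lists and motifs could not be applied without a genome of the files' build.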

Additional observations from a re-analysis of the deposited data

Results flagged for a closer look

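Among 41 sets of 4 libraries examined over 7 measures of the windows (mean level, share at 0%, counts at 20% or more and at 50% or more, level at shared positions, mitochondrial level and windows high in 1 library), 3 had a library farther from the others than Dixon's 95% limit for 4 samples, and chance gives about 2.05. SEN replicate 2 had 443 windows at 20% or more, and the other SEN libraries had 294 to 316. BaP replicate 3 had 9 windows at 50% or more, against 2 to 3 in the others. DMSO replicate 3 had 9 windows in which it alone was high, against 3 to 4 in the others, in a group whose levels chose the windows. Explanations were not tested.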

How the results depend on the processing

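In SENbp against SEN, members called higher numbered 169 in the main test and 94 with a coverage minimum of 20 reads. They numbered 37 on positions listed in all 8 libraries, 11 without squeezing of the dispersion and 102 with a limit of 20 points. With 1 library of the contrast left out they were 67 to 152, and with each DMSO library left out of the selection 163 to 172. The deviance form of the test, added after the data were seen, gave 214, and testing only windows at 5 to 95% pooled methylation gave 245. Members called lower numbered 1 in the main test, 3 with the deviance form and 3 with the 5 to 95% filter. They numbered 0 with weights capped at 20 reads, with members of 50 or more positions, with DMSO below 5% and by edgeR. With a library left out they numbered 0 to 1, and KB708130.1:34393001-34394000 was called in none of these 8 fits.

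In SEN against MTc, members called higher numbered 28 in the main test, 43 with the deviance form and 47 with the 5 to 95% filter. They numbered 9 on positions listed in all 8 libraries. They were 16 with 20 points and 18 with DMSO below 5%. With 1 library of the contrast left out they were 5 to 18, and with each DMSO library left out of the selection 27 to 29. Without squeezing they were 0, and edgeR called 0 in each comparison. Members called lower, 0 in the main test, were 1 with the deviance form, 1 with the 5 to 95% filter, 1 on positions listed in all 8 libraries and 0 to 2 with a library left out. MTc against Nc and MTc against BaP had 0 member calls under each alternative that was run. Fewer windows or libraries were tested under the filters and the restrictions; for the other settings the cause was not tested.

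Same-numbered libraries did not deviate together (correlations of -0.0426 to 0.0438), so the numbers were not used to pair samples. With the number as a replicate block, 12 members were called higher and 0 lower in SENbp against SEN, 0 higher in SEN against MTc, the adjusted p of MT:2001-3000 in MTc against BaP was 0.235, and 1 library correlated best with its own number in each of 3 comparisons and 0 in the fourth.

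Mean levels kept the order of the groups under the alternatives that moved them by more than 1 SD. With DMSO below 5% they were 0.978, 1.21, 1.53, 1.61, 2.47 and 4.26% in DMSO, BaP, Nc, MTc, SEN and SENbp. With DMSO below 15% they were 1.73% in DMSO, 1.88% in BaP, 2.48% in MTc, 3.71% in SEN and 6.04% in SENbp. With 50 or more positions they were 1.22% in DMSO, 1.34% in BaP, 1.74% in MTc, 2.68% in SEN and 4.63% in SENbp. With 20 or more positions they were 1.73% in BaP, 3.41% in SEN and 5.66% in SENbp. With a coverage minimum of 20 reads they were 1.75% in BaP, 3.39% in SEN and 5.67% in SENbp, and the unweighted mean over positions was 1.53% in BaP. None of the differences of the named windows reversed its sign under an alternative. These windows were chosen for large differences or small p-values, which limits this check. Of the 52 called members of SENbp against SEN that had shared positions, 51 were higher in SENbp on them. With 3 or more positions listed in all 8 libraries, 2455 of the 11334 members could be tested in SENbp against SEN, so shared positions limit the check on identical positions.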
